A study of Homo sapiens with 6 samples.

Results

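The 36 genes described here encode the antioxidant systems that centre on the transcription factor NRF2, on glutathione and on thioredoxin. They were chosen by name: the NRF2 gene NFE2L2 with its regulators, well-known NRF2 target genes, glutathione synthesis enzymes, glutathione peroxidases, the thioredoxin system, peroxiredoxins, superoxide dismutases and methionine sulfoxide reductases. Of these, 35 were matched by Ensembl ID to 1 of the 57905 rows of the expression table, and TXNIP, which encodes a thioredoxin-binding protein, was not analysed here. A gene was tested where its level reached 1 FPKM (fragments per kilobase of exon, relative to the library's total) in at least 3 of the 6 libraries, which 32 members did. AKR1B10, AKR1C3 and MSRA did not and are described by their values. The lowest level of a tested member in any library was 2.13 FPKM, so no member passed through 1 group alone.

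RNA was sequenced from Huh7, an established human hepatoma cell line, in 2 groups of 3 libraries. One group had received a scrambled control siRNA (siControl, named WT by the submitters although these cells were transfected too) and the other an siRNA directed at ASGR1 (siASGR1, named AS2), a subunit of the asialoglycoprotein receptor of hepatocytes. Cells of both groups were collected after 72 h. No untransfected cells and no further siRNA sequence against ASGR1 enter the comparison, and nothing in the labels ties a library to its own culture, so the p-values given reflect only how far these libraries spread, and that spread may be technical.

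NRF2 is a short-lived protein under basal conditions, because the adaptor KEAP1 presents it to a CUL3 ubiquitin ligase for degradation. Oxidants and electrophiles modify KEAP1, and stabilised NRF2 then pairs with a small MAF protein and binds antioxidant response elements (ARE) in its target genes, where BACH1 acts as a repressor. Hepatocytes make and export much of the body's glutathione, a tripeptide that glutathione peroxidases spend to reduce peroxides. Thioredoxin and the peroxiredoxins form a parallel peroxide-reducing system, and both systems draw their electrons from NADPH. Because NRF2 is controlled largely as a protein, its mRNA level is not its activity, and no protein was measured here.

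The ARE core is shown first, since it is the sequence that links the regulators among these genes to their targets. The core TGACNNNGC was searched on both strands (GCNNNGTCA on the other) in RefSeq promoter windows of GRCh38.p14, from 250 bases before to 50 bases after each start site. At least 1 core lay in 13.3% of all 35116 windows. Of the members 27 had at least 1 window, 43 windows in all, and 6 of these 43 windows (14%) held a core, close to the share among all windows. These 6 belong to 5 genes and hold 8 sites. HMOX1, GSS, GSR, TXN2, PRDX1, PRDX6, SOD1, AKR1B10 and MSRA had no window. Each site is printed on the strand of its gene with 10 bases on either side, and capitals mark the core:
KEAP1, chr19:10502807-10502835, minus strand: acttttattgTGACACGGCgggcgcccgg
KEAP1, chr19:10502784-10502812, minus strand: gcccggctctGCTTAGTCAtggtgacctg
GCLM, chr1:93909446-93909474, minus strand: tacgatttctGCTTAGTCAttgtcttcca
GPX2, chr14:64942849-64942877, minus strand: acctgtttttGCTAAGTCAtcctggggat
GGT1, chr22:24603154-24603182, plus strand: ggaaggaggaGCTGGGTCAcagcagggaa
TXNRD1, chr12:104215670-104215698, plus strand: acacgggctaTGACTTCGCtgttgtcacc
TXNRD1, chr12:104215761-104215789, plus strand: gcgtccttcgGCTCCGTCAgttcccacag
TXNRD1, chr12:104286920-104286948, plus strand: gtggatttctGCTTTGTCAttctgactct

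The core GCTTAGTCA, as read on the gene's strand, occurred in both KEAP1 and GCLM. None of the 8 sites held TGACTCA, the AP-1 motif, which can overlap an ARE. In GENCODE v29 the GGT1 site is intronic, the first TXNRD1 site lies before the gene, and the other 6 lie at least partly in untranslated exons of 1 or more transcripts. A core was found in 3 of the 11 members with a window that were lower in siASGR1 (GCLM, GPX2 and TXNRD1), in 1 of the 9 that were higher (GGT1) and in 1 of the 5 that did not pass the test (KEAP1). These are counts of genes, some with more than 1 window, so the 13.3% of windows is no background for them. No share per gene over all genes was worked out, and whether sites go with direction was not tested. A match describes these letters only, and functional elements can lie outside the windows.

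The antioxidant genes went both ways. Of the 32 tested members 13 were higher and 14 lower in siASGR1, and 5 did not pass the test (KEAP1, GPX3, GPX4, PRDX5 and SOD2). Calls rest on limma with an adjusted p under 0.05, taken over all 13568 tested genes, of which 61.3% were called (20.9% higher and 40.4% lower). The share of members called was 84.4%. The median log2 fold change was 0.03 over the members and -0.134 over all tested genes. Each fitted fold change is one of log2(FPKM + 1), a scale that shrinks differences of weakly expressed genes; folds of mean FPKM are named as such. In 28 members the 2 groups did not overlap (14 higher and 14 lower), as was so for 67.3% of all tested genes (23.5% higher and 43.8% lower). A change of at least 2-fold on the fitted scale was seen in 2 members that were higher, NQO1 and PRDX4. Among the lower members GCLM, GPX2, OSGIN1, AKR1C1 and AKR1C2 reached it, and HMOX1 fell just short (log2 fold change -0.996). Over all tested genes, 1.91% were called and at least 2-fold higher and 3.71% called and at least 2-fold lower.

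**Figure D1:**
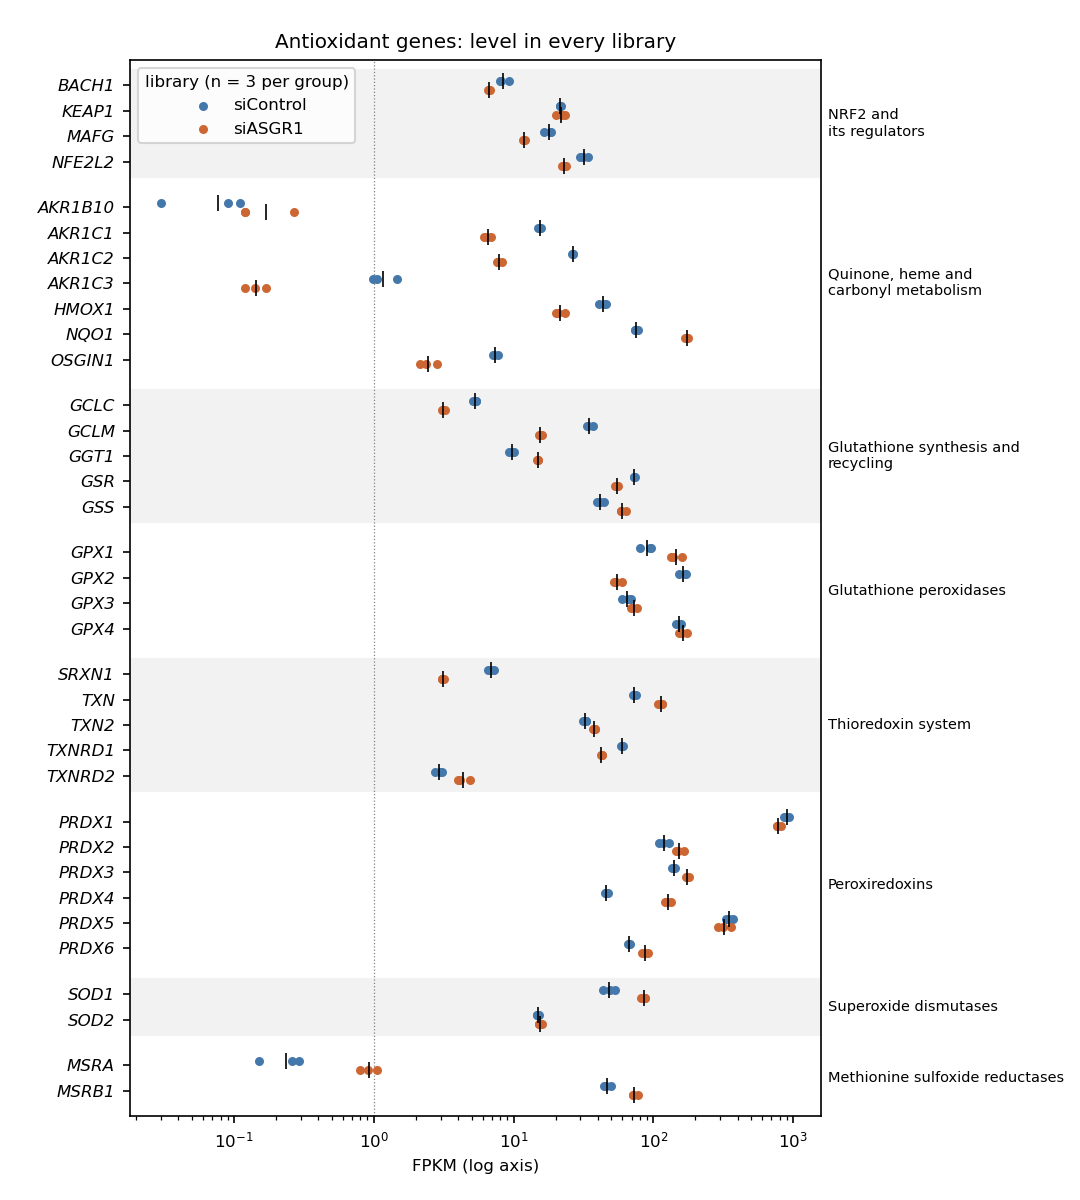
Level of each of the 35 matched antioxidant genes in FPKM on a log axis, grouped by role; points are single libraries, 3 in siControl (blue) and 3 in siASGR1 (orange), short black lines are group means, and the dotted line marks 1 FPKM. PRDX1 is the highest in both groups, and AKR1B10, AKR1C3 and MSRA lie near or under 1 FPKM.

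FPKM are shares of each library's total, and the median shift of all genes bears on small changes. With median-of-ratios scaling the median over all tested genes moved from -0.134 to -0.007, and 58.8% of all genes were called, 29.9% higher and 28.9% lower. Under that scaling 17 members were higher and 13 lower. With upper-quartile scaling the counts were 16 and 13 (59.6% of all genes called, 25.1% and 34.6%), and with quantile normalization 14 and 15 (58.3% of all genes called, 28.7% and 29.6%). Calls of 26 members, 13 in each direction, were the same under all 4 scalings. PRDX1 was called lower as deposited and with quantile normalization only.

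Sequencing depth, recovered from the steps between low FPKM values, lay between 16326000 (siControl replicate 3) and 19332000 fragments (siControl replicate 1), with the siASGR1 libraries in between. ASGR1 itself was listed in the table of the whole series at 17.54, 17.56 and 16.90 FPKM in siControl and at 4.6, 4.82 and 4.71 in siASGR1, that is 27.2% of control. The libraries' own files list 14.65, 15.81 and 14.04 in siASGR1, or 85.6%. ASGR1 was the only 1 of the 57905 genes whose values differed between these sources, and only in the siASGR1 libraries. Which listing is right is not known, so the extent of the knockdown is uncertain. No member's value differed. All 8 hepatocyte markers examined, among them ALB, AFP, APOA1, TTR and SERPINA1, were called higher in siASGR1, and their summed level went from a range of 3544.02 to 3684.64 to one of 6233.09 to 6352.47 FPKM. The 10 fibroblast markers summed to 6.28 to 7.56 in siControl and 0.70 to 0.95 in siASGR1, with 7 lower without overlap and POSTN at 0 in every siASGR1 library. Of the 5 leukocyte markers 4 overlapped between groups, among them PTPRC at or under 0.01 and CD14 at 1.62 ± 0.47 and 1.62 ± 0.0643, and LYZ rose from 71.5 ± 3.78 to 116 ± 1.83. Of the 4 matched endothelial markers KDR and TEK were at 0 throughout, while CDH5 was higher (0.05, 0.03 and 0.08 against 0.2, 0.15 and 0.17) and VWF lower (0.03, 0.02 and 0.06 against 0.01 in each) without overlap, all below the level needed for the test. Of the 3 macrophage markers 1 (CSF1R) was lower without overlap and 2 overlapped, and none exceeded 0.21. What part these markers have in the changes of the antioxidant genes was not tested. In bulk RNA, fewer cells of a kind and less RNA per cell cannot be told apart.

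Among NRF2 and its regulators 3 of 4 members were lower and 0 higher. NFE2L2, which encodes NRF2 (GRCh38 chromosome 2, 177227595 to 177392697), was at 29.92, 34.09 and 31.40 FPKM in siControl and at 23.85, 22.11 and 23.15 in siASGR1. All siASGR1 libraries lay below all siControl libraries, and the log2 fold change was -0.45 (SE 0.057, adjusted p = 0.000433). MAFG, a small MAF partner of NRF2, was 18.61, 18.24 and 16.59 in siControl against 11.89, 12.07 and 11.67 in siASGR1 (log2 fold change -0.55, adjusted p = 0.000117). BACH1, the repressor that competes for the same elements, fell from 8.44 ± 0.681 to 6.67 ± 0.123 (SD, n = 3 here and below; log2 fold change -0.30, SE 0.062, adjusted p = 0.00457). Its change under median-of-ratios scaling was -0.16, only just past the threshold (adjusted p = 0.0492). KEAP1 was 21.68, 21.61 and 21.40 in siControl and 20.20, 23.16 and 22.05 in siASGR1. The KEAP1 groups overlapped, and the 95% interval of the log2 difference ran from -0.11 to 0.14 (adjusted p = 0.845). It passed the test as higher with median-of-ratios scaling (0.16, adjusted p = 0.0473). Exons of NFE2L2, BACH1 and MAFG overlap those of other annotated genes (AGPS, GRIK1 and SIRT7 among them), so some fragments could belong to those.

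The genes of quinone, heme and carbonyl metabolism hold several widely used NRF2 readouts, and these diverged. NQO1 (GRCh38 chromosome 16, 69706996 to 69726951), a quinone reductase, was at 73.76, 73.61 and 77.72 FPKM in siControl and at 177.41, 175.06 and 168.22 in siASGR1. HMOX1 (chromosome 22, 35380361 to 35394214), the inducible heme oxygenase, was at 45.58, 44.54 and 41.00 in siControl and at 20, 23.44 and 20.90 in siASGR1. NQO1 was thus above and HMOX1 below the control range in each siASGR1 library. NQO1 rose 2.31-fold in mean FPKM (log2 fold change 1.2, SE 0.04, adjusted p = 2.43e-06), and HMOX1 was 2.04-fold lower (log2 fold change -1.0, SE 0.068, adjusted p = 2.74e-05). The ratio of NQO1 to HMOX1, on this per-length scale, was 1.72 ± 0.151 in siControl and 8.13 ± 0.704 in siASGR1. The same ratio of NQO1 to GCLM, another classical target, lay between 2.12 and 2.20 in siControl and between 10.92 and 11.58 in siASGR1. OSGIN1, an oxidative stress-induced growth inhibitor, was 7.68, 7.17 and 7.26 in siControl and 2.38, 2.13 and 2.82 in siASGR1. It was 3.02-fold lower in mean FPKM (log2 fold change -1.29, SE 0.082, adjusted p = 2.10e-05). Exon sequence of NQO1 is shared with AC092115.2 on the other strand, and the strand setting used in counting is not known from the labels. That of OSGIN1 is shared with AC009119.2 on the same strand, so a strand setting would not separate them.

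The aldo-keto reductases AKR1C1, AKR1C2 and AKR1C3 reduce ketosteroids and reactive carbonyls, and their genes lie side by side on chromosome 10 between 4963253 and 5107686. Their coding sequences are so alike that fragments can be shared between them. Reading frames of 972 bases each, taken as the longest in any GENCODE v29 transcript, were 98.0% identical between AKR1C1 and AKR1C2, with an identical run of 189 bases. AKR1C3 shared 91.9% with AKR1C1 and 91.3% with AKR1C2. The stretch shown was picked as the 60 bases of the reading frame with the most differences. From position 103 to 162 it holds 15 of the 91 positions at which the 3 genes are not all alike, and capitals mark these:
AKR1C1: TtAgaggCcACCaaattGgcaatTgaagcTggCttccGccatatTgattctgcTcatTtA
AKR1C2: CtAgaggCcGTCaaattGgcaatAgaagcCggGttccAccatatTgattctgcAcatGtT
AKR1C3: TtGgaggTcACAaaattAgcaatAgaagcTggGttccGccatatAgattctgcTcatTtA

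AKR1C2 was 26.02, 26.64 and 26.68 FPKM in siControl and 7.67, 7.65 and 8.22 in siASGR1, 3.37-fold lower in mean FPKM (log2 fold change -1.63, SE 0.044, adjusted p = 1.75e-06). This was the largest fitted decrease among the 32 tested members, with values as deposited. AKR1C1 was 14.89, 15.79 and 15.39 against 6.43, 6.92 and 6.16 (log2 fold change -1.13, adjusted p = 6.98e-06). AKR1C3, below the level needed for the test, was 0.99, 1.05 and 1.46 in siControl and 0.14, 0.12 and 0.17 in siASGR1, or about 80 to 108 fragments against 10 to 15. All 3 genes thus had every siASGR1 library below every siControl library. With no filter on low values AKR1C3 had a log2 fold change of -0.92 (adjusted p = 0.00247). The FPKM of the 3 genes summed to 43.0 ± 0.927 in siControl and 14.5 ± 0.23 in siASGR1, 2.96-fold lower. Since each gene's FPKM is divided by its own exon length, this sum too depends on how shared fragments were assigned. AKR1B10, a related reductase often raised in liver tumours, rested on 1 to 3 fragments per siControl library and 4 to 9 per siASGR1 library. No fold is given for it, and no difference was called with no filter (adjusted p = 0.271).

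Glutathione is made in 2 steps, and the genes of these steps changed in opposite directions. The first and rate-limiting step is carried out by glutamate-cysteine ligase, made of a catalytic subunit (GCLC) and a modifier subunit (GCLM). GCLM (chromosome 1, 93885205 to 93909456) was 33.86, 33.41 and 36.71 FPKM in siControl and 15.90, 15.12 and 15.40 in siASGR1. GCLC was 5.38, 5.10 and 5.41 in siControl and 3.12, 3.05 and 3.25 in siASGR1. Neither gene's groups overlapped. GCLM was 2.24-fold lower in mean FPKM (log2 fold change -1.11, SE 0.048, adjusted p = 5.09e-06) and GCLC 1.69-fold lower (log2 fold change -0.60, adjusted p = 9.04e-05). GSS, the synthetase of the second step, was 44.01, 41.80 and 39.23 in siControl and 58.56, 63.28 and 58.43 in siASGR1. It rose 1.44-fold in mean FPKM (log2 fold change 0.52, adjusted p = 0.000184). GGT1, the cell-surface enzyme that starts glutathione breakdown, rose from 9.73 ± 0.354 to 14.8 ± 0.17 (log2 fold change 0.56, adjusted p = 4.69e-05), and some of its exon sequence is shared with SNRPD3. GSR, which reduces oxidised glutathione with NADPH, fell from 73.0 ± 1.08 to 54.7 ± 1.18 (log2 fold change -0.41, adjusted p = 7.14e-05). The per-length ratio of GCLM to GCLC was 6.54 ± 0.246 in siControl and 4.93 ± 0.18 in siASGR1.

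The glutathione peroxidases split by member. GPX2 (chromosome 14, 64939152 to 64942905), the form best known from the gut epithelium, was 171.36, 167.23 and 153.58 FPKM in siControl and 52.28, 59.34 and 53.59 in siASGR1. GPX1, the ubiquitous cytosolic form, was 95.43, 94.17 and 79.95 in siControl and 134.44, 160.01 and 138.73 in siASGR1. The order of these genes was therefore exchanged, with GPX2 above GPX1 in every siControl library and below it in every siASGR1 library. GPX2 was 2.98-fold lower in mean FPKM (log2 fold change -1.56, SE 0.063, adjusted p = 4.01e-06), and GPX1 1.61-fold higher (log2 fold change 0.68, SE 0.089, adjusted p = 0.000503). GPX1 has 2 named pseudogenes in the annotation. GPX2 went from rank 3 to rank 15 in level among the 32 tested members. It made up 34.8% ± 0.15 of the summed level of GPX1 to GPX4 in siControl and 12.7% ± 0.0655 in siASGR1. The sum of the other 3 was 307 ± 19.3 and 379 ± 27.9.

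GPX3, the secreted plasma form, was 69.09, 65.29 and 60.05 in siControl and 70.41, 76.86 and 69.40 in siASGR1. Its groups did not overlap, but their nearest libraries differed little and the test was not passed (log2 fold change 0.15, adjusted p = 0.0679). It passed as higher with median-of-ratios scaling (0.31, adjusted p = 0.00723), upper-quartile scaling (0.23, adjusted p = 0.0164), a minimum of 5 FPKM (adjusted p = 0.0473), or without siControl replicate 1 (0.20, adjusted p = 0.0381). GPX4, which reduces lipid peroxides in membranes and protects against ferroptosis, was 153 ± 6.39 and 163 ± 10.6 with overlapping groups (log2 fold change 0.09, 95% interval -0.04 to 0.22, adjusted p = 0.209). GPX4 was called higher with median-of-ratios (0.24, adjusted p = 0.0135) and upper-quartile scaling (0.17, adjusted p = 0.0421).

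**Figure D2:**
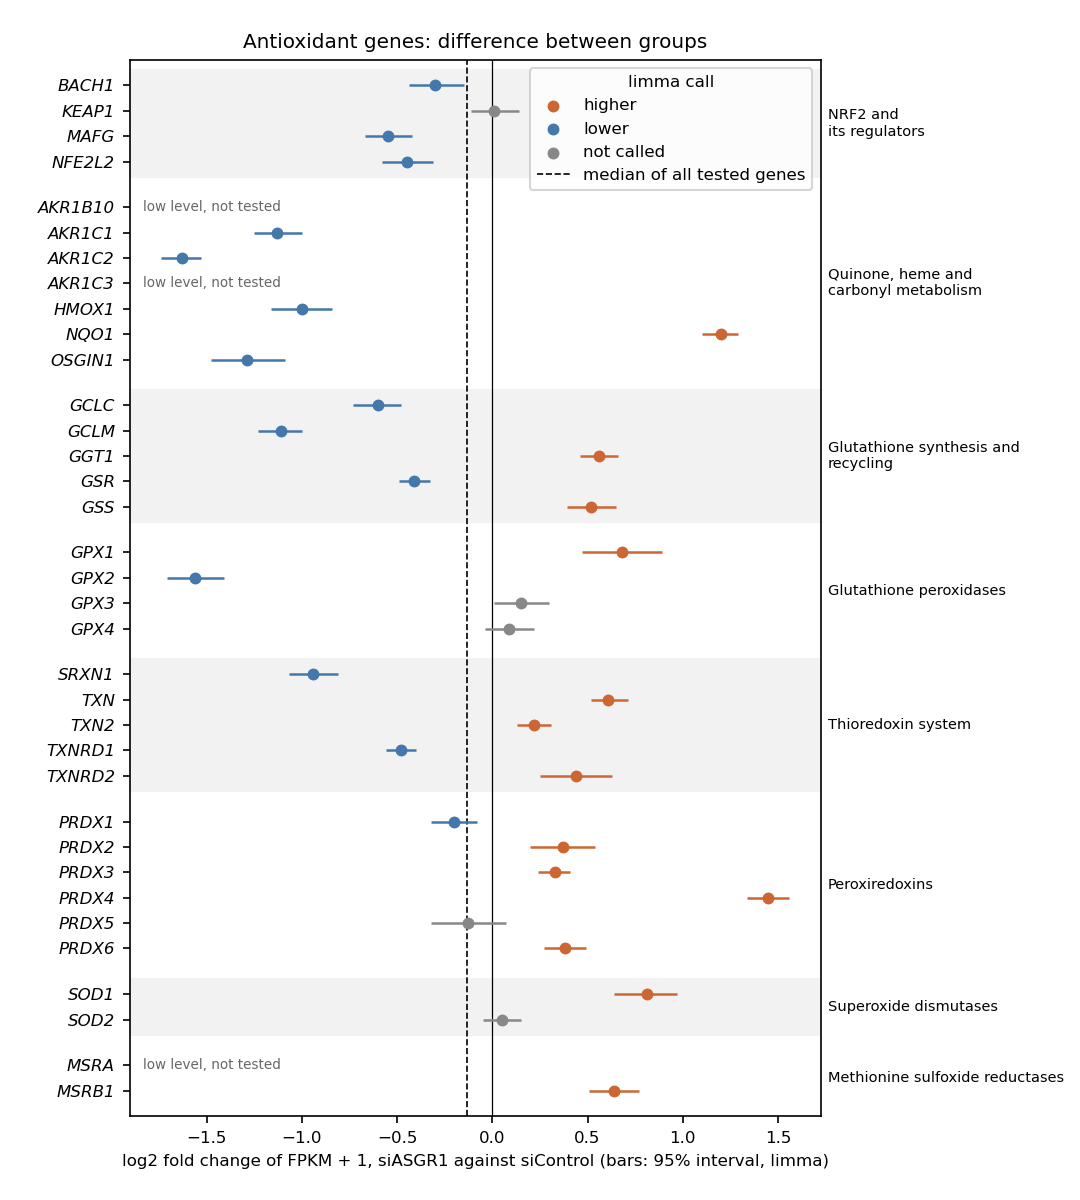
Fitted log2 fold change of FPKM + 1 in siASGR1 against siControl for each antioxidant gene with its 95% interval from limma (n = 3 libraries per group); orange points passed the test as higher, blue as lower, grey did not pass, and the dashed line is the median of all 13568 tested genes, -0.134. NQO1 and PRDX4 stand at the right and AKR1C2, GPX2 and OSGIN1 at the left.

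In the thioredoxin system the thioredoxins rose while the cytosolic reductase and sulfiredoxin fell. TXN, cytosolic thioredoxin, was 75.55, 71.13 and 73.05 FPKM in siControl and 108.55, 114.66 and 114.91 in siASGR1. TXNRD1 (chromosome 12, 104215779 to 104350305), the reductase that recharges it with electrons from NADPH, was 58.73, 59.28 and 60.86 in siControl and 42.89, 41.85 and 42.74 in siASGR1. Each gene's groups were well apart, in opposite directions. TXN rose 1.54-fold in mean FPKM (log2 fold change 0.61, adjusted p = 2.56e-05) and TXNRD1 was 1.40-fold lower (log2 fold change -0.48, adjusted p = 3.46e-05). The per-length ratio of TXN to TXNRD1 was 1.23 ± 0.0498 in siControl and 2.65 ± 0.109 in siASGR1. TXN has 7 named pseudogenes, so its level is less certain than that of TXNRD1, which has none.

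In mitochondria the partners rose together: TXN2 rose from 32.3 ± 1.06 to 37.8 ± 0.748 (log2 fold change 0.22, adjusted p = 0.00249). TXNRD2, the mitochondrial reductase, was 3.08, 2.97 and 2.74 in siControl and 4.0, 4.89 and 4.14 in siASGR1 (log2 fold change 0.44, adjusted p = 0.00254). SRXN1, sulfiredoxin, which repairs overoxidised peroxiredoxins, was 7.21, 6.93 and 6.54 in siControl and 3.09, 3.19 and 3.06 in siASGR1, 2.21-fold lower in mean FPKM (log2 fold change -0.94, SE 0.056, adjusted p = 1.52e-05).

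The peroxiredoxins, thiol peroxidases that thioredoxin reduces in most cases, were the most abundant members. With values as deposited 4 of the 6 rose, 1 fell and 1 did not pass the test. PRDX4 (chromosome X, 23664262 to 23686399), the form of the endoplasmic reticulum, was 45.45, 47.35 and 44.94 FPKM in siControl and 125.44, 134.19 and 121.59 in siASGR1. This was the largest fitted increase among the 32 tested members, 2.77-fold in mean FPKM (log2 fold change 1.45, SE 0.047, adjusted p = 2.21e-06). PRDX4 has 1 named pseudogene. PRDX2, a cytosolic form, rose from 119 ± 9.83 to 153 ± 9.92 (log2 fold change 0.37, adjusted p = 0.00321). PRDX3, the mitochondrial form, rose from 139 ± 2.87 to 175 ± 4.36 (log2 fold change 0.33, adjusted p = 0.000256). PRDX2 and PRDX3 each have 4 named pseudogenes. PRDX6, the form that uses glutathione, rose from 67.0 ± 1.36 to 87.6 ± 4.54 (log2 fold change 0.38, adjusted p = 0.000358).

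PRDX1, a cytosolic form and the most abundant member, was 892.17, 866.36 and 939.90 in siControl and 761.66, 819.03 and 767.36 in siASGR1. Its groups did not overlap, and it was called lower (log2 fold change -0.20, SE 0.05, adjusted p = 0.0108). PRDX1 shares exon sequence with MMACHC on the other strand and has 1 named pseudogene. The change is close to the median shift of all genes, and the call was lost with median-of-ratios (-0.05, adjusted p = 0.473) and upper-quartile scaling (-0.12, adjusted p = 0.0797). It was also lost when low genes were not filtered out (adjusted p = 0.0966). PRDX5, found in mitochondria, peroxisomes and cytosol, was 369.39, 348.26 and 330.33 in siControl and 287.80, 358.22 and 316.57 in siASGR1. Its siASGR1 replicate 2 lay inside the control range, and the difference was not called (log2 fold change -0.13, 95% interval -0.32 to 0.07, adjusted p = 0.223). Without that library PRDX5 was called lower (-0.21, adjusted p = 0.0348), as it was with quantile normalization (-0.26, adjusted p = 0.0296), while median-of-ratios scaling gave 0.03 (adjusted p = 0.821).

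The summed level of the 6 peroxiredoxins ranged from 1588.9 to 1642.0 in siControl and from 1586.9 to 1747.6 in siASGR1, with overlap. Within that sum the share of PRDX1 was 55.5% ± 1.91 and 47.6% ± 0.606, and that of PRDX4 2.84% ± 0.125 and 7.72% ± 0.169. Over all 35 matched members the summed level also overlapped, at 2765.5 to 2835.2 and 2784.7 to 3032.3.

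SOD1, the cytosolic copper-zinc superoxide dismutase, was 48.91, 43.89 and 52.73 FPKM in siControl and 81.62, 86.99 and 87.50 in siASGR1. It rose 1.76-fold in mean FPKM (log2 fold change 0.81, SE 0.069, adjusted p = 6.86e-05), and it has 3 named pseudogenes. SOD2, the mitochondrial manganese form, was 14.9 ± 0.308 in siControl and 15.5 ± 0.349 in siASGR1 with overlap (log2 fold change 0.05, 95% interval -0.05 to 0.15, adjusted p = 0.321). SOD2 was called higher under each of the other scalings: 0.19 by median-of-ratios factors (adjusted p = 0.00418), 0.12 by upper quartiles (adjusted p = 0.0357) and 0.12 by quantile normalization (adjusted p = 0.038). Its exons overlap WTAP and a further Ensembl ID of the same name. MSRB1, a selenoprotein that repairs oxidised methionine, rose from 46.6 ± 2.69 to 73.1 ± 3.65 (log2 fold change 0.64, adjusted p = 7.66e-05). MSRA, which repairs the other methionine sulfoxide stereoisomer, was below the level needed for the test. It was 0.26, 0.29 and 0.15 in siControl and 0.91, 1.05 and 0.79 in siASGR1, or about 10 to 21 fragments against 63 to 81. With no filter on low values its log2 fold change was 0.64 (adjusted p = 0.00627).

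**Figure D3:**
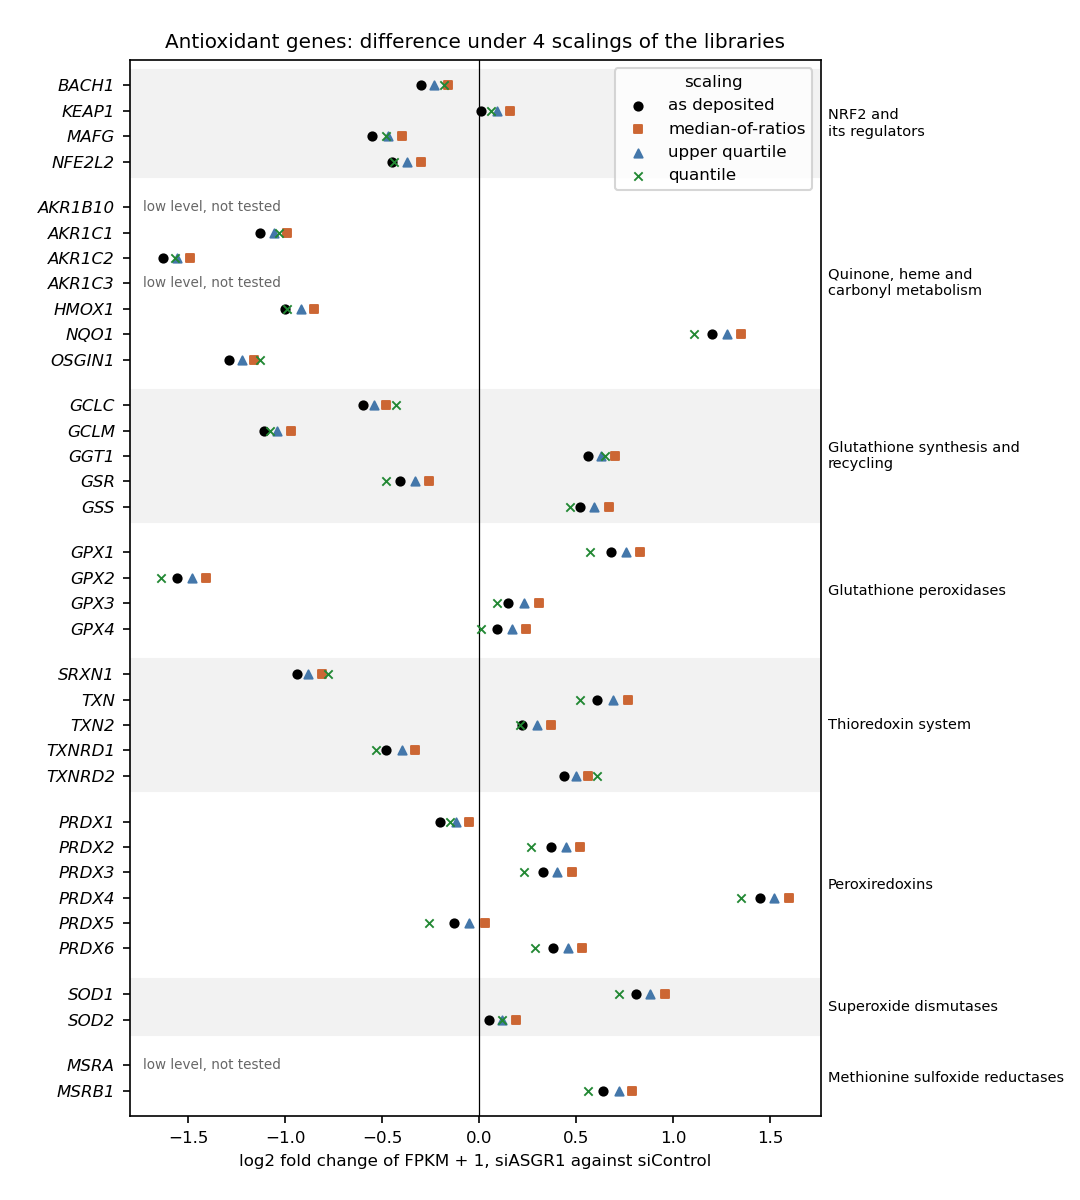
Fitted log2 fold change of each antioxidant gene in siASGR1 against siControl under 4 scalings of the same 6 libraries: values as deposited (circles), median-of-ratios (squares), upper quartile (triangles) and quantile normalization (crosses). Most genes keep their side of 0 under each scaling, and PRDX5 crosses it.

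Genes that act beside the members were described from 8 lists of related genes, which hold 152 genes, 124 of them tested. Of these 46 were higher and 42 lower, with a median log2 fold change of 0.02 (63 and 30 with median-of-ratios scaling). Over all tested genes 20.9% were higher and 40.4% lower (29.9% and 28.9% with median-of-ratios scaling), the background for each list below. Among 15 tested NRF2 regulators outside the members, 3 were higher and 10 lower (median -0.27), against 4 and 6 with median-of-ratios scaling. MAFK, another small MAF gene, fell from 12.6 ± 1.58 to 4.67 ± 0.388 FPKM (log2 fold change -1.26, adjusted p = 3.89e-05). SQSTM1, which encodes the KEAP1-sequestering protein p62, was 1.41-fold lower in mean FPKM. NFE2L1, a relative of NFE2L2 that controls proteasome genes, rose 1.42-fold. CUL3, the ligase scaffold that KEAP1 uses, was 7.09 ± 0.158 and 7.80 ± 0.50 and did not pass the test with values as deposited (adjusted p = 0.107), while it was called higher under each other scaling, median-of-ratios included (adjusted p = 0.00507). Leaving out siASGR1 replicate 2 also gave a call (adjusted p = 0.0296).

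Among 28 other NRF2 target genes 11 were higher and 9 lower (median 0.04), against 16 and 8 with median-of-ratios scaling. SLC7A11, the cystine importer that feeds glutathione synthesis, fell from 13.3 ± 1.07 to 3.48 ± 0.269 (log2 fold change -1.67, SE 0.073). UGDH, which makes UDP-glucuronate, was 2.88-fold lower in mean FPKM, the cytokine gene TNFSF9 3.15-fold and the lipase gene ABHD4 1.68-fold lower. These lower genes had the smallest adjusted p of the list and do not stand for all of it. The 11 higher genes include ABCC2, FTL and FTH1, which rose 1.63-fold, 1.24-fold and 1.15-fold in mean FPKM. IDH1, TALDO1 and MGST1, given below with other lists, are also among the 11. Genes of cytosolic NADPH supply numbered 11, with 5 higher and 2 lower (under median-of-ratios scaling 8 and 1). IDH1, MTHFD1, RPIA and TALDO1 rose 1.51-fold, 2.10-fold, 1.62-fold and 1.42-fold. ME1, malic enzyme, was 14.6 ± 0.782 and 14.8 ± 0.129 (adjusted p = 0.796) and was called higher with median-of-ratios scaling (0.16, adjusted p = 0.0254).

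Glutathione S-transferases, which attach glutathione to electrophiles, were higher in 8 and lower in 2 of 13 tested genes (median 0.45). With median-of-ratios scaling 10 were higher and 2 lower, and with a minimum of 5 FPKM 1 was lower. GSTP1, the most abundant of those named, rose from 283 ± 13.4 to 427 ± 35.3 FPKM. GSTM1 and GSTO1 rose 2.30-fold and 2.16-fold, MGST1 rose 1.52-fold, and GSTM3 was 2.76-fold lower. Genes of the mu class resemble each other, so GSTM1 and GSTM3 could share fragments. Of 18 genes of glutathione supply, breakdown and export 6 were higher and 6 lower (8 and 6 with median-of-ratios scaling). CHAC1, which degrades glutathione inside the cell, fell from 33.8 ± 2.64 to 9.42 ± 0.35, while the aminopeptidase genes ANPEP and LAP3 rose 1.86-fold and 1.88-fold.

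Of 16 glutaredoxins and thioredoxin-like proteins 5 were higher and 5 lower (8 and 3 with median-of-ratios scaling). The count of higher genes was 2 without siControl replicate 1 or 2, without siASGR1 replicate 1 or 3, and with no filter on low values. TXNDC17 rose from 4.91 ± 0.207 to 14.1 ± 1.37. GLRX, a cytosolic glutaredoxin, TMX1 and GLRX5 were 1.54-fold, 1.30-fold and 1.22-fold lower, although GLRX5 lost its call with median-of-ratios scaling (adjusted p = 0.0562). Other peroxide and superoxide enzymes numbered 13, with 7 higher and 2 lower (under median-of-ratios scaling 8 and 0, and 4 higher with a minimum of 5 FPKM). CAT, the peroxisomal catalase, rose from 33.6 ± 0.313 to 71.0 ± 2.10 (log2 fold change 1.06, SE 0.037), CYBA rose 1.51-fold and PARK7 1.21-fold. SESN2, a sestrin, was 1.19-fold lower and lost its call with median-of-ratios scaling (adjusted p = 0.153).

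Glutathione peroxidases 1 to 4, the thioredoxin reductases and MSRB1 are selenoproteins, so the genes of selenium use were counted as well. Of 20 tested genes of selenoprotein synthesis and other selenoproteins, 7 were higher and 9 lower (8 and 6 with median-of-ratios scaling). SEPHS2, which makes the selenium donor, rose from 185 ± 2.06 to 304 ± 9.61, and SELENOP, the plasma selenium carrier, rose 1.19-fold. SELENOF rose 1.53-fold, SELENOI and SELENOS were 1.83-fold and 1.74-fold lower, and SECISBP2, which decodes the selenocysteine signal, was 1.28-fold lower.

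**Figure D4:**
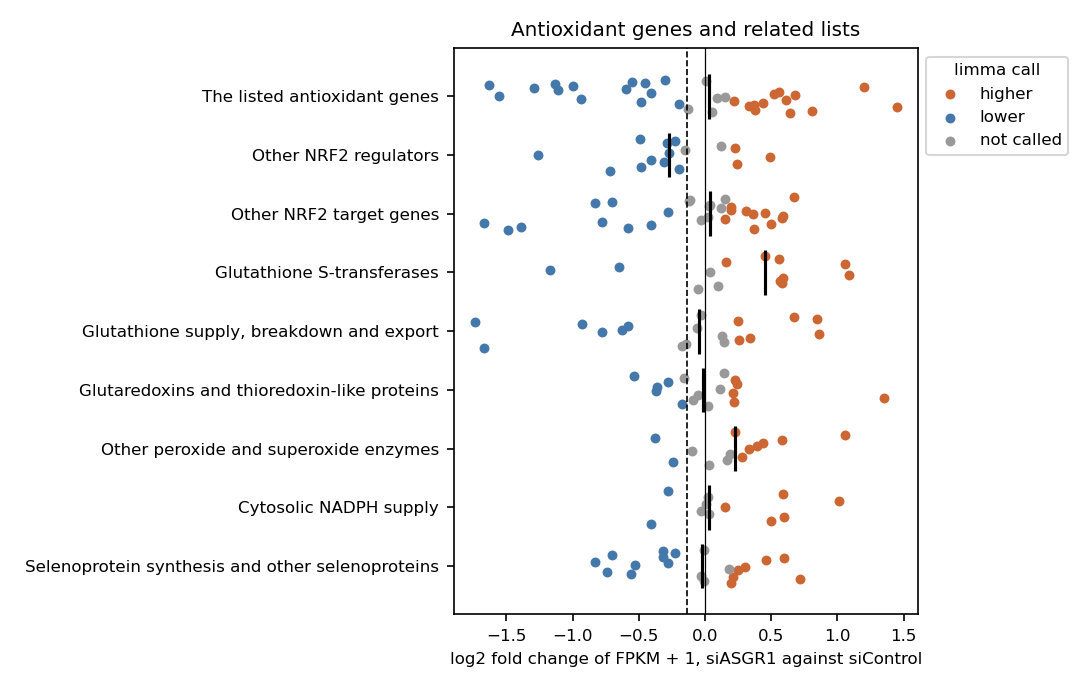
Fitted log2 fold change in siASGR1 against siControl for each tested gene of the antioxidant list and of 8 related lists; 1 point is 1 gene, orange passed the test as higher, blue as lower and grey did not pass, black bars are list medians and the dashed line is the median of all tested genes. The spread within each list reaches to both sides of 0, and the median of the glutathione S-transferases lies at 0.45.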

How the data were processed

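RNA-seq libraries of 3 siControl and 3 siASGR1 samples were grouped by the labels' treatment field. Per the submitters' processing notes, the tools were HISAT2 2.0.1, cutadapt 1.9.1 and bcl2fastq 2.17.1.14 and the genome was hg19; how fragments were counted is not given in the sources used here, nor is the strand setting. FPKM with 2 decimals were deposited by the authors (the series-wide table is named as raw counts but holds FPKM), so count tests were not used. Depth was worked out from the size of the steps by which low FPKM differ, given GENCODE v29 exon lengths: 94.5% to 95.3% of low values came out as whole fragments, against 9.0% to 9.8% by chance.

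Symbols came from the gene name table and GENCODE v29 (40374 IDs, 69.7%). The tables carry no coordinates, and positions given are from GENCODE v29 (GRCh38). Genes that reached an FPKM of 1 in 3 or more libraries were fitted as log2(FPKM + 1) with limma 3.58.1 (R 4.3.3), with group as the only term, a prior that follows the level, two-sided, and Benjamini-Hochberg adjustment over 13568 genes. A self-test used simulated fragments (12805 genes) with an assumed dispersion of 0.002 and 50 genes changed per size. The fit called 26% of those changed 1.2-fold, 86% of 1.5-fold, 96% of 2-fold and 100% of 4-fold changes. Of 166 calls 12 were false. Far fewer genes changed in this simulation than were called in the data, which makes its threshold stricter, so these rates need not hold for the data. No pair of libraries of a group agreed within sampling noise (chi-square per degree of freedom 2.58 to 5.64).

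The members and lists were chosen with earlier results of these data known. Named were all members, ASGR1, 5 hepatocyte markers, up to 4 called genes of each related list with the smallest adjusted p, and 11 related genes whatever their values. Some genes that this rule takes are left out of the text. Other marker genes, TRIM16L, ABCC2, FTL and FTH1 were named after their values were seen. Alternatives covered scaling, pseudocount, filters, prior, a replicate block, the libraries' own files and leaving out each library. Python 3.11.15, pandas 2.3.3, Biopython 1.88 and matplotlib 3.10.9 made the remaining tables and plots.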

Additional observations from a re-analysis of the deposited data

How the results depend on the processing

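Of the 32 tested members, 26 kept their direction and their side of the threshold in each of the 14 other settings that gave a value (TXNRD2 gave none with a minimum of 5 FPKM); the exceptions were GPX3, GPX4, KEAP1, PRDX1, PRDX5 and SOD2, whose values stand in the report. The sign turned for KEAP1 without siASGR1 replicate 2 (-0.03, adjusted p = 0.64; up to 0.065 without another library), for PRDX5 with median-of-ratios scaling (0.026) and for ME1 without siControl replicate 1 (-0.022; up to 0.05), all 3 not called there; the cause was not tested. A minimum of 5 FPKM left 7829 genes to test, 2196 of them called higher and 3382 lower. With the minimum of 1 FPKM these were 2839 and 5480 of 13568 genes. GCLC, OSGIN1 and SRXN1 reached 5 FPKM in siControl only, where they were higher, so their calls in that setting lend no support. Leaving out 1 library at a time gave 13 to 14 members called higher and 14 to 15 lower, 2495 to 2757 and 4950 to 5151 of all tested genes, and 38 to 44 and 39 to 41 of the related genes. Called lower in the list of other NRF2 regulators were 5 with quantile normalization, and in that of glutaredoxins and thioredoxin-like proteins 3 with quantile normalization or a minimum of 5 FPKM. Same-numbered libraries of the 2 groups did not deviate together (r of -0.019, 0.002 and 0.012 across genes), so the numbers were not taken as pairs; a fit with the replicate block called 13 members higher and 14 lower, and 2761 and 5303 of all tested genes. The values of the libraries' own files, an alternative chosen after seeing the data, changed no member. Tests on raw counts (edgeR, DESeq2) were not run, since the files hold FPKM. At these depths members near or under 1 FPKM rest on few fragments. The self-test called 26% of 1.2-fold changes, a rate that need not hold here, where 61.3% of all tested genes were called.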
